A study of Mus musculus with 16 samples.

Results

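The genes described here are 9 genes grouped as inflammatory chemokine receptors, namely Cxcr3, Cxcr4, Cxcr5, Cxcr6, Cx3cr1, Ccr2, Ccr4, Ccr8 and Ccr9. They are among 26089 curated RefSeq genes on the mm10 chromosomes that hold peaks. The group also holds receptors described below by retention or homing, such as Cxcr4, Cxcr5 and Ccr9. All 9 genes were chosen by name, and a peak was assigned to a gene when it overlapped the gene body or the 30 kb on either side. The peaks came from splenic CD8+ T cells of OT1 mice, which carry a transgenic T-cell receptor (TCR) against an ovalbumin peptide. All cells were stimulated for 48 h with plate-bound anti-CD3, soluble anti-CD28 and IL-2, and were then kept in IL-2 for 3 days of expansion. GSK2879552 (GSK), which inhibits the histone demethylase LSD1 irreversibly, was present at 0.5 μM throughout culture in the GSK-treated cells, whereas Veh-treated cells received the vehicle. Chromatin immunoprecipitation and sequencing (ChIP-seq) with each of 6 antibodies, against LSD1, RNA polymerase II (Pol II), H3K27ac, H3K4me1, H3K4me2 and H3K4me3, gave 1 peak list per antibody and treatment. The 4 input samples had no peak list and were not analysed here, and how many mice stood behind a library is not given in the sources used here.

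Chemokine receptors are G protein-coupled receptors that sense gradients of secreted chemokines and steer the migration of leukocytes. T cells change which of these receptors they display when they are activated, which decides whether they enter lymphoid follicles, inflamed tissue, gut or skin. LSD1 is a demethylase whose substrates on this histone tail are H3K4me1 and H3K4me2. H3K4me1 is typical of enhancers, H3K4me3 of active promoters and H3K27ac of both when active, while Pol II marks genes engaged by the transcription machinery.

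Each list came from 1 library, so no spread between replicates exists for any value below, and no test or p-value between treatments is given. The intervals quoted are 95% Wilson intervals and cover counting error only. Peak strength is given as fold enrichment, the ratio of ChIP signal to local background in a peak, and as −log10 p of the peak call. Below, a value in parentheses after a fold is its −log10 p. A gene without a peak in a list had no region above the calling cutoff there, which does not show that the signal was absent. Fewer cells with a mark and less of the mark per cell cannot be told apart in these bulk data. Depth was not computed, because peak lists hold no read numbers. All 5 markers of T cells and CD8 T cells (Cd3e, Cd3d, Cd3g, Cd8a, Cd8b1) carried a promoter H3K4me3 peak in both treatments. None of the 9 markers of CD4 T cells, B cells, myeloid cells or NK cells carried one, and 6 of these (Cd4, Ms4a1, Cd79a, Lyz2, Csf1r, Ncr1) had no promoter peak in any list. The shortest of the 12 lists was GSK H3K27ac with 2751 peaks, and the longest was GSK H3K4me1 with 40272.

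To investigate the state of the receptor promoters, peaks within 1 kb of the transcription start site (TSS) were examined in all 12 lists. Cxcr4 had a promoter peak in 12 of 12 lists. Next came Cxcr6 and Ccr4 with 6 each, Cxcr3 with 5, Ccr2 with 4, Cx3cr1 with 2 and Cxcr5 with 1, while Ccr8 and Ccr9 had none. The median of the 9 genes was 4 lists, which was also the median of all genes. H3K4me3 was found at the same 5 promoters in Veh and GSK cells, those of Cxcr3, Cxcr4, Cxcr6, Ccr2 and Ccr4, beside 50.2% of all genes in Veh, 51.3% in GSK and 49.8% in both. H3K4me1 was found at 5 promoters in Veh and 7 in GSK, beside 30.4% and 36.9% of all genes. Pol II was called at 2 of the 9 promoters in both treatments, Cxcr4 and Cxcr6, beside 29.4% of all genes in Veh, 25.0% in GSK and 22.1% in both. H3K27ac was called at 1 promoter, Cxcr4, in both treatments, beside 20.6% of all genes in Veh, 8.61% in GSK and 8.28% in both.

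The calls that differed between treatments were few. LSD1 was listed at 3 receptor promoters in Veh (Cxcr3, Cxcr4, Ccr4) and at 2 in GSK (Cxcr3, Cxcr4), beside 36.5% and 41.8% of all genes. Ccr4 was the receptor with LSD1 in Veh alone, a state shared by 4.46% of all genes. H3K4me2 was listed at Cxcr4 and Ccr4 in Veh and at Cxcr4 in GSK, beside 39.2% and 28.3% of all genes. Ccr4 was again the receptor with the call in Veh alone, as were 12.8% of all genes. Cxcr3 and Cxcr5 had promoter H3K4me1 in GSK alone, as did 9.89% of all genes. At the 16 promoter and antibody pairs called in both treatments, the ratio of GSK to Veh fold lay between 0.608, for Pol II at Cxcr6, and 1.27, for H3K27ac at Cxcr4. The median H3K27ac fold of a list was likewise higher in GSK, at 4.91, than in Veh, at 3.90. The Cxcr4 H3K27ac peaks had −log10 p of 6.70 in Veh and 7.21 in GSK, under the list medians of 9.42 and 8.83.

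**Figure D1:**
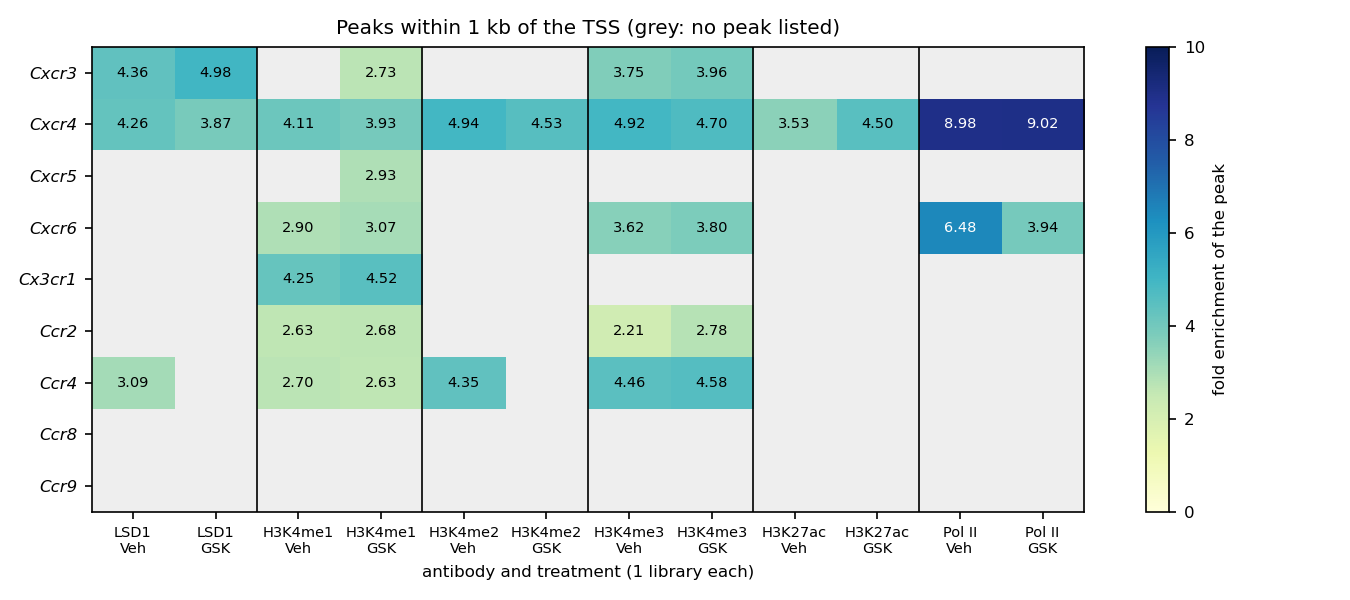
Fold enrichment of the promoter peak (within 1 kb of the TSS) of each of the 9 receptor genes in each of the 12 lists, 1 library per list. Colour and number give the fold, and grey marks a list without a promoter peak. Cxcr4 is filled across all 12 lists with Pol II folds of 8.98 and 9.02, H3K4me3 is paired in 5 genes, and Ccr8 and Ccr9 are grey throughout.

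The sequence just upstream of the start site is printed for the receptors whose promoters carried H3K4me3 together with LSD1 or Pol II, 250 bases each from the RefSeq promoter table (build GRCm38.p6, written 5′ to 3′ along the gene, ending at the base before the TSS). Capitals mark matches to the motifs searched on both strands, namely RUNX (TGTGGT), AP-1 (TGANTCA), TCF/LEF (CTTTGAT), ETS (ACAGGAA), T-box (GGTGTGA) and GFI1 (AAATC, any 3 bases, GC). The table held 8 of the 9 receptors and not Cxcr5.
Cxcr4, chr1:128592300-128592549, minus strand: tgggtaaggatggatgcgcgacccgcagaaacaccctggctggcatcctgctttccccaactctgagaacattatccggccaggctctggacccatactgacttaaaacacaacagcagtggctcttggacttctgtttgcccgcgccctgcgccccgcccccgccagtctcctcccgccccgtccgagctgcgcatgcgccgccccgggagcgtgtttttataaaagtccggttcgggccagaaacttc
Cxcr3, chrX:101734148-101734397, minus strand: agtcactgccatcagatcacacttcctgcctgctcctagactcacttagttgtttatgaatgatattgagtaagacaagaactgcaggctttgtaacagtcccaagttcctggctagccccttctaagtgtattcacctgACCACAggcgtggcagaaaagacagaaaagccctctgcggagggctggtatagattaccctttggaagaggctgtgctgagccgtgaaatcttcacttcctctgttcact
Cxcr6, chr9:123806227-123806476, plus strand: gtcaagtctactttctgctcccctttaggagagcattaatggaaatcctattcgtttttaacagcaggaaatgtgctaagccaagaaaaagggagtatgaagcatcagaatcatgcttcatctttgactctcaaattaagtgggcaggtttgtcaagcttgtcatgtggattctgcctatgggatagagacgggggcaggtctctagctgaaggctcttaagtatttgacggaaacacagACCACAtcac
Ccr4, chr9:114496545-114496794, minus strand: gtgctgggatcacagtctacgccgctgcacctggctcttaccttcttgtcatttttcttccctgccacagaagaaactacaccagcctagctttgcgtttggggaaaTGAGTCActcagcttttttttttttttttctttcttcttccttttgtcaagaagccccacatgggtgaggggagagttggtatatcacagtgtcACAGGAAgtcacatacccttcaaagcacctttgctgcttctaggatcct

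The Cxcr4 stretch stood apart by base composition. It held 19 CpG dinucleotides at a GC content of 61.2%, more CpGs than 80.3% of 32851 promoters, whose median was 6 CpGs and 52.4% GC. The other 7 receptors in the table held 1 to 4 CpGs, with 3 in Cxcr3, Cxcr6 and Ccr4. None of the 6 motifs was found in the Cxcr4 stretch. A RUNX match stood at −110 in Cxcr3 and at −10 in Cxcr6, in bases from the TSS, and a further match was present in Cx3cr1, which makes 3 of 8 receptors beside 14.0% of all promoters. Ccr4 held an AP-1 match (TGAGTCA) at −143 and an ETS match at −49, and these motifs were found in 6.75% and 7.20% of all promoters. An ETS match was also present in Cx3cr1 at −49 and in Ccr8 at −209, which makes 3 of 8 receptors. These matches describe letters in a short window and not bound sites.

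Cxcr4 (chr1:128588199-128592299, minus strand), the receptor for Cxcl12, keeps lymphocytes in bone marrow and lymphoid tissue. It had the most complete promoter of the 9 genes. The Pol II peak at its TSS had a fold of 8.98 (27.8) in Veh and 9.02 (37.5) in GSK, above 96.3% and 98.3% of the peaks in the respective lists. Promoter H3K4me3 had a −log10 p of 79.4 in Veh and 94.1 in GSK at folds of 4.92 and 4.70. The H3K4me3, LSD1, H3K27ac and Pol II peaks reached into the gene, whereas H3K4me1 and H3K4me2 lay about 1 kb upstream. Promoter LSD1 was similar in fold, at 4.26 in Veh and 3.87 in GSK. H3K4me2 was 4.94 and 4.53.

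Outside the promoter, Cxcr4 was surrounded by LSD1 peaks that were kept in GSK, mostly at lower values. The peak at 22.1 kb downstream of the TSS had a fold of 7.84 (21.1) in Veh, rank 1025 of 21252 by −log10 p, and of 5.88 (11.4) in GSK. At −16.1 kb, where negative positions are upstream, the fold was 5.58 (17.3) in Veh and 3.79 (7.00) in GSK. The peak at −19.7 kb differed little, with 4.19 (11.6) in Veh and 4.37 (9.70) in GSK. None of these 3 LSD1 sites overlapped a peak of the other 5 antibodies. At −22.4 kb an LSD1 peak (2.90) and an H3K27ac peak (3.90) were present in Veh and absent from the GSK lists, on an H3K4me1 region found in both. H3K4me1 calls differed most often around this gene, with 4 GSK-specific regions (at 23.5, −9.5, −13.1 and −17.1 kb) and 2 Veh-specific regions (at 25.9 and −14.5 kb). Their −log10 p ran between 5.62 and 7.80, under the Veh list median of 8.09 and the GSK list median of 8.22.

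Cxcr3 (chrX:101731535-101734147, minus strand) is the receptor for the interferon-induced chemokines Cxcl9 and Cxcl10 and guides effector T cells into inflamed tissue. Promoter H3K4me3 and LSD1 were listed in both treatments, and H3K4me1 in GSK alone. H3K4me3 had a fold of 3.75 (34.3) in Veh and 3.96 (34.02) in GSK, and LSD1 at the TSS had 4.36 (9.07) in Veh and 4.98 (8.70) in GSK. The promoter H3K4me1 call in GSK (fold 2.73, −log10 p 10.8) came from a region at chrX:101734825-101736893. A Veh H3K4me1 peak with a fold of 2.67 overlapped it but began farther upstream, at chrX:101736443-101738498, outside the 1 kb limit. LSD1 at −3.2 kb was kept, with 5.51 (13.7) in Veh and 5.07 (8.85) in GSK. Next to it, at −3.6 kb, the Veh list held an H3K27ac peak (fold 3.25, −log10 p 9.45) that the GSK list did not. No Pol II or H3K4me2 peak lay in the Cxcr3 window, which held 11 peaks in all.

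Cxcr6 (chr9:123806477-123811754, plus strand), the receptor for Cxcl16, is a mark of tissue-resident and effector CD8+ T cells. Its promoter carried H3K4me3, H3K4me1 and Pol II but no LSD1. Pol II at the TSS had a fold of 6.48 (14.6) in Veh and 3.94 (7.32) in GSK, a ratio of 0.608. Its place in the list went from above 87.5% of Veh Pol II peaks to above 68.5% of GSK Pol II peaks. H3K4me3 did not follow, with 3.62 (21.2) in Veh and 3.80 (21.3) in GSK. For Pol II, lower folds in GSK were common, since the median fold of a list was 3.89 in Veh and 3.46 in GSK, and 81.1% of the 4862 pairs of promoter Pol II peaks over all genes had a lower fold in GSK. The study states more reads for the GSK than the Veh Pol II library, and the part of this in the folds was not tested.

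Cxcr6 lies inside the Fyco1 gene, and more LSD1 peaks of its window were listed in Veh than in GSK. The LSD1 peak at 8.1 kb downstream, in a Fyco1 intron, had a fold of 6.31 (20.6) in Veh, rank 1064, and 3.57 (5.37) in GSK. An H3K27ac peak at the same site (fold 2.77, −log10 p 7.31) was in the Veh list alone, while H3K4me1 was present in both lists at 2.29 and 2.02. Veh LSD1 peaks at −21.7, −11.9 and 29.5 kb had no GSK counterpart. The first of these had the highest −log10 p among the LSD1 peaks near the 9 genes that were found in 1 treatment, at 7.83 (17.6), rank 1536. A weaker GSK LSD1 peak at 5.7 kb (fold 3.70, −log10 p 5.60) had no Veh counterpart.

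Ccr9 (chr9:123767211-123783457, plus strand) lies next to Cxcr6 and shares part of its window. It is the receptor for Ccl25 and directs T cells to the small intestine. No list held a peak within 1 kb of its TSS. Its upstream region nevertheless held the LSD1 peak with the highest −log10 p of all those near the 9 genes, at −12.6 kb, with 8.11 (22.2) in Veh, rank 909, and 5.53 (10.0) in GSK. H3K4me1 at this site was higher in GSK, with 3.38 (8.33) in Veh and 4.13 (14.5) in GSK. A second site at −26.1 kb, with LSD1 and H3K4me1 in both treatments, showed the same order for H3K4me1, with 5.94 (9.87) in Veh and 6.44 (14.2) in GSK. There LSD1 was 3.89 in Veh and 3.85 in GSK. H3K4me1 regions at −3.3 kb and in intron 1 at 1.8 kb were in the GSK list alone, with −log10 p of 6.42 and 5.24. The window had 10 Veh peaks and 14 GSK peaks.

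Ccr4 (chr9:114490316-114496544, minus strand), the receptor for Ccl17 and Ccl22, is used by T cells that home to skin. Its window held 17 peaks in Veh and 10 in GSK. At the promoter, LSD1 (fold 3.09, −log10 p 4.70) and H3K4me2 (fold 4.35, −log10 p 8.87) were listed in Veh alone. H3K4me3 was listed in both at 4.46 (14.7) and 4.58 (14.6), and H3K4me1 at 2.70 and 2.63. A site 8.4 kb downstream of the TSS, chr9:114487137-114489232, carried 5 antibodies in Veh and 2 in GSK. LSD1 there had 6.10 (16.7) in Veh and 4.91 (10.6) in GSK, and H3K4me1 had 3.85 (18.7) and 3.20 (15.7). H3K4me2 (5.18), H3K27ac (fold 4.18, −log10 p 8.53) and Pol II (fold 4.56, −log10 p 6.78) were in the Veh lists alone. The H3K4me2 peak at −10.5 kb, at 5.55 (15.6) and above 95.8% of the Veh H3K4me2 list by −log10 p, also lacked a GSK counterpart. So did LSD1 at −11.0 kb (fold 4.21, −log10 p 8.45) and in a Trim71 intron at −23.7 kb (fold 3.11, −log10 p 3.64).

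Ccr2 (chr9:124102183-124109140, plus strand), the receptor for Ccl2, serves recruitment to sites of inflammation. Its promoter had weak H3K4me3 and H3K4me1 and no LSD1, Pol II or H3K27ac. In Veh, H3K4me3 was split into a 264 bp peak at the TSS (fold 2.21, −log10 p 7.99) and a 1764 bp peak farther into the gene (fold 2.84, −log10 p 16.4). In GSK a single region of 3241 bp (fold 2.78, −log10 p 14.9) spanned both. In intron 1, LSD1 at 1.3 kb (fold 5.35, −log10 p 12.2) and Pol II at 1.5 kb (fold 4.77, −log10 p 10.6) were in the Veh lists alone. LSD1 at 12.7 kb (fold 4.40, −log10 p 7.96) was likewise missing from the GSK list, so the Ccr2 window held 2 LSD1 peaks in Veh and none in GSK.

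Cx3cr1 (chr9:120048683-120068296, minus strand), the receptor for fractalkine, marks cytotoxic effector cells. Its promoter held H3K4me1 alone, at 4.25 (8.93) in Veh and 4.52 (11.95) in GSK. Farther into the gene, H3K4me1 in intron 1 at 13.7 kb had folds of 3.96 in Veh and 3.54 in GSK, and no other peak lay in the gene. Beyond its 3′ end, at 37.7 kb, LSD1 (fold 5.66, −log10 p 11.0) and H3K4me2 (fold 4.83, −log10 p 7.88) were in the Veh lists alone, on an H3K4me1 region kept at 2.97 and 2.49. Upstream, at −14.4 kb, the reverse was seen, and LSD1 (fold 3.94, −log10 p 5.30) was in the GSK list alone on H3K4me1 kept at 3.40 in Veh and 3.25 in GSK. That site also lies −9.4 kb from the TSS of Ccr8.

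Ccr8 (chr9:120092133-120094906, plus strand), the receptor for Ccl1, is better known from regulatory T cells and skin-resident T cells. It had no peak at its TSS or in its gene body. H3K4me1 at −9.1 kb and at 4.1 kb was present in both treatments, the latter with 4.28 (8.31) in Veh and 4.35 (11.9) in GSK. Apart from the GSK LSD1 peak described with Cx3cr1, the remaining peaks of its window belonged to the promoters of Cx3cr1 and Slc25a38.

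Cxcr5 (chr9:44511787-44526444, minus strand), the receptor for Cxcl13, brings lymphocytes into follicles. Its promoter was empty but for H3K4me1 in GSK (fold 2.93, −log10 p 9.48) at −0.48 kb, and a further GSK-specific H3K4me1 region stood at −2.7 kb (fold 2.39, −log10 p 7.85). Its window nevertheless held more peaks than those of the other 8 genes, 45 in all, many of them in the neighbouring gene Bcl9l. Its intron 1 held 1 of the 2 sites away from TSSs where H3K27ac was kept, at 10.6 kb, with 3.31 (9.34) in Veh and 4.03 (7.86) in GSK. LSD1 at this site was 3.73 in Veh and 3.90 in GSK. A second H3K27ac peak in intron 1 at 9.0 kb (fold 3.41, −log10 p 9.58) and one at −6.9 kb (fold 3.64, −log10 p 7.21) were in the Veh list alone. At −11.5 kb, LSD1 was kept at 5.11 (10.6) and 5.62 (11.7), while H3K4me2 (4.63) and Pol II (3.53) beside it were in the Veh lists alone.

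Intron 1 of Bcl9l, 30.8 kb downstream of the Cxcr5 TSS, carried all 6 antibodies in both treatments. LSD1 was stronger there in GSK, with 3.73 (7.63) in Veh and 5.65 (16.4) in GSK, the reverse of the order at 22.1 kb from Cxcr4, 8.1 kb from Cxcr6 and −12.6 kb from Ccr9. H3K27ac was 3.89 (10.8) in Veh and 4.48 (7.57) in GSK, so fold and −log10 p pointed in different directions, as in intron 1 of Cxcr5. This was usual for H3K27ac. Of 722 pairs of its peaks away from TSSs over all genes, 88.1% had a lower −log10 p in GSK and 8.31% a lower fold. Pol II was 6.14 in Veh and 3.98 in GSK.

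**Figure D2:**
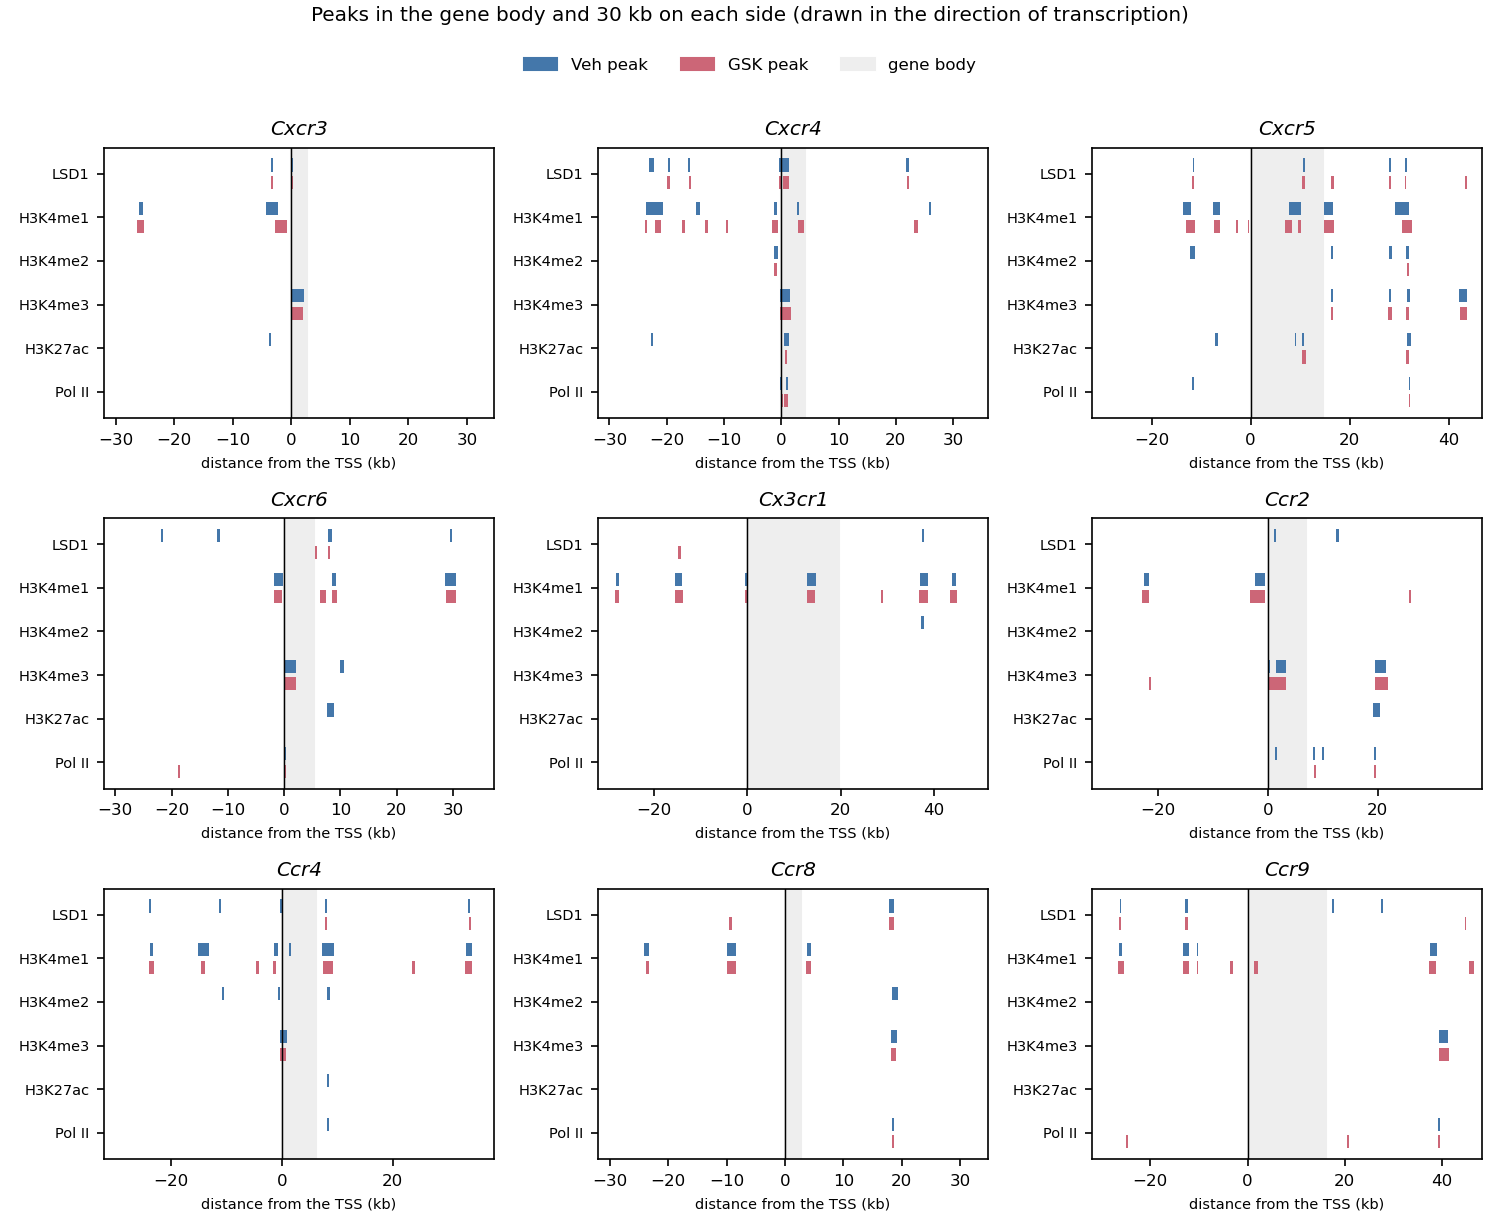
Position of every peak in the gene body and 30 kb on each side of the 9 receptor genes, drawn in the direction of transcription, with the distance from the TSS in kb on the x axis and 1 row per antibody (Veh blue, GSK red, gene body grey, 1 library per list). Cxcr4 and Ccr9 are flanked by LSD1 peaks in both colours, Ccr2 has LSD1 in blue alone, and around Ccr4 H3K4me2, H3K27ac and Pol II appear in blue alone.

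To compare the treatments over all 9 genes, each peak was counted once, because Cxcr6 shares part of its window with Ccr9 and Cx3cr1 with Ccr8. The 7 merged windows spanned 0.545 Mb and held 193 peaks, 102 in Veh and 91 in GSK. For LSD1 there were 26 peaks in Veh and 21 in GSK, a ratio of 0.808 (interval 0.458 to 1.42), beside 0.962 in the windows of all genes. For H3K4me1 there were 32 and 44 peaks, a ratio of 1.38 (0.875 to 2.16), beside 1.18, a value inside the interval. With lists of equal length there were 32 and 38 H3K4me1 peaks, a ratio of 1.19. The study states more reads for the GSK than the Veh H3K4me1 library, and the part of this in the count was not tested. For H3K4me3 there were 13 and 12 peaks, and for Pol II 11 and 9 peaks, with ratios of 0.923 and 0.818. More reads are stated for the GSK than the Veh library with Pol II as well. The windows were rich in Veh peaks of every antibody, so this was not particular to LSD1 or H3K4me1. Veh LSD1 had 47.7 peaks per Mb against 11.7 in the windows of all genes, and Veh H3K4me1 had 58.7 against 19.3. Veh H3K27ac had 18.3 against 4.37, H3K4me3 23.8 against 9.52, Pol II 20.2 against 8.01 and H3K4me2 18.3 against 9.09. In GSK, H3K4me2 alone went the other way, with 3.67 against 5.69. The part of gene length and of the choice of genes in these densities was not tested.

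H3K4me2 and H3K27ac had the fewest GSK peaks for each Veh peak. H3K4me2 had 10 peaks in Veh and 2 in GSK, a ratio of 0.200 (interval 0.0493 to 0.812), beside 0.626 over the windows of all genes, a value inside the interval. It covered 6.31 kb in Veh and 0.970 kb in GSK. The 8 H3K4me2 peaks without a GSK counterpart had −log10 p from 7.15 to 15.6, above the lowest −log10 p in the GSK list, 5.76. H3K27ac had 10 peaks in Veh and 3 in GSK, a ratio of 0.300 (0.0891 to 1.01), beside 0.372 over all genes. This direction depended on the length of the lists. With the Veh H3K27ac list shortened to its 2751 strongest peaks, the length of the GSK list, the windows held 1 Veh and 3 GSK peaks, a ratio of 3.00. The study states fewer reads for the GSK than the Veh library with both antibodies, the gap being wide for H3K27ac, and the part of this in the counts was not tested.

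**Figure D3:**
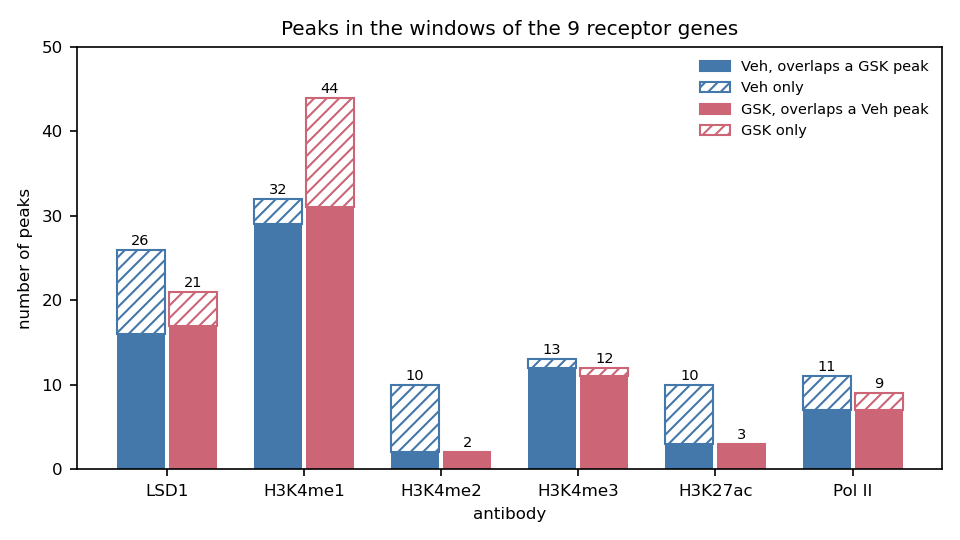
Number of peaks in the merged windows of the 9 receptor genes per antibody, Veh in blue and GSK in red, 1 library each. Solid bars are peaks that overlap a peak of the other treatment, and hatched bars are peaks found in 1 treatment. Hatched Veh peaks make up most of H3K4me2 and H3K27ac, and hatched GSK peaks are most frequent in H3K4me1.

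Overlap between treatments was high for H3K4me3 and H3K4me1 and low for H3K27ac and H3K4me2. Of the Veh peaks, the share met by a GSK peak was 92.3% (interval 66.7 to 98.6) for H3K4me3 and 90.6% (75.8 to 96.8) for H3K4me1, beside 97.6% and 87.8% in the windows of all genes. It was 30.0% (10.8 to 60.3) for H3K27ac and 20.0% (5.67 to 51.0) for H3K4me2, beside 35.3% and 56.1%, the latter above the interval for H3K4me2. This held for the 30 kb flank alone. With a flank of 50 kb the H3K4me2 share was 50.0% (10 of 20 peaks, 29.9 to 70.1). With 10 kb it was 25.0% (1 of 4 peaks, 4.56 to 69.9). Both of these intervals held 56.1%, the all-gene share at 30 kb. For Pol II it was 63.6% (35.4 to 84.8), beside 46.4%. For LSD1 it was 61.5% (42.5 to 77.6), beside 58.6%.

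To ask where LSD1 was kept, its peaks were split by position. Within 1 kb of any TSS, 5 of 6 Veh LSD1 peaks were overlapped by a GSK peak, 83.3% (interval 43.6 to 97.0) beside 83.0% for all genes. Away from TSSs it was 11 of 20, 55.0% (34.2 to 74.2), beside 37.3% for all genes. Intronic LSD1 was kept at 3 of 7 peaks and intergenic LSD1 at 8 of 13, beside 33.6% and 40.3% for all genes. The 10 Veh LSD1 peaks without a GSK counterpart were weaker than the 16 with one, at a median −log10 p of 6.498 against 10.65, but their range from 3.64 to 17.6 reached well into that of the others. The 4 GSK LSD1 peaks without a Veh counterpart had a median of 5.45.

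Where LSD1 was kept away from TSSs, its −log10 p was more often lower in GSK than higher. Of 11 pairs of overlapping peaks, 9 (81.8%) had a lower −log10 p in GSK, beside 61.6% of 3719 such pairs over all genes, and the medians were 13.7 in Veh and 9.70 in GSK. By rank within each list, 9 of 11 were again lower in GSK, beside 63.2% over all genes. By fold, 7 of 11 were lower, beside 55.2%. At TSSs, 2 of 5 LSD1 pairs had a lower −log10 p in GSK, beside 31.2% over all genes. The plot of −log10 p in Veh against GSK shows these pairs beside those of H3K4me1.

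**Figure D4:**
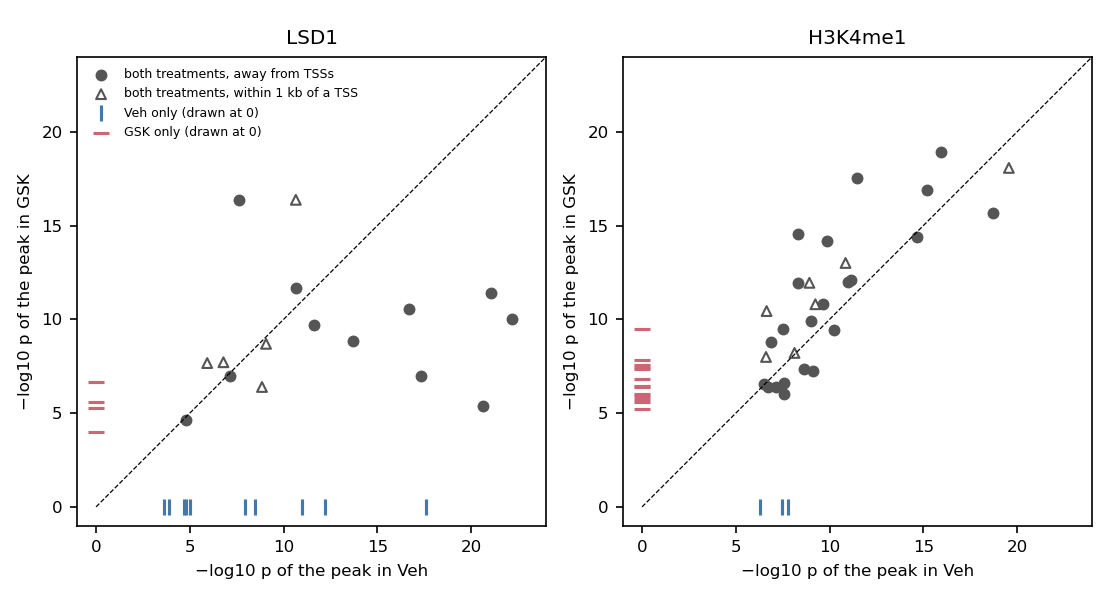
−log10 p of overlapping LSD1 peaks (left) and H3K4me1 peaks (right) near the 9 receptor genes, Veh on the x axis and GSK on the y axis, filled circles away from TSSs and triangles within 1 kb of a TSS, with peaks found in 1 treatment drawn as ticks at 0. The dashed line marks equal values. Of the LSD1 pairs away from TSSs, 9 of 11 lie below the line, while H3K4me1 pairs scatter around it.

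The sequence under the summit is printed for the LSD1 peaks with the highest Veh −log10 p away from TSSs, 2 in Veh alone and 2 kept in GSK, so that the sites that lost and kept a call can be seen side by side. Each holds the Veh summit and 100 bases on either side in the GRCm38 reference, plus strand, with motif matches in capitals.
Between Ccr9 and Cxcr6, Veh alone, chr9:123784719-123784919: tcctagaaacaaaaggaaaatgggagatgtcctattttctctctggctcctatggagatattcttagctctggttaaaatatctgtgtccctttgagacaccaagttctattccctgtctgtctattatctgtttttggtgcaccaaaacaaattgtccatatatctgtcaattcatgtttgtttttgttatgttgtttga
Ccr2 intron 1, Veh alone, chr9:124103412-124103612: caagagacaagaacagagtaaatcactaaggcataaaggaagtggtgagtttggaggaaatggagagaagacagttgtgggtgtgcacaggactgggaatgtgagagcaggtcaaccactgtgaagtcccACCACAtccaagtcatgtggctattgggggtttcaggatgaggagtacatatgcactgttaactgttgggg
Upstream of Ccr9, kept, chr9:123754490-123754690: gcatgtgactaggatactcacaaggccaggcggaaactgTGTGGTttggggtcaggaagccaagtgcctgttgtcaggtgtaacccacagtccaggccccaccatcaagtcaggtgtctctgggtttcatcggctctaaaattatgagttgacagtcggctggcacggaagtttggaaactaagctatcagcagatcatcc
Downstream of Cxcr4, kept, chr1:128570052-128570252: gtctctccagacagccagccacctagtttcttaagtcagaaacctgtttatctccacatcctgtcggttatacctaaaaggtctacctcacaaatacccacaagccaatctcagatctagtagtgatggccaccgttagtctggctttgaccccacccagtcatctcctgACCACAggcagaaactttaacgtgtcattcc

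A RUNX match was found in 3 of these 4 windows, including both kept sites and the Ccr2 intron, beside 32.1% of 12563 Veh LSD1 summits away from TSSs. The window between Ccr9 and Cxcr6 held none of the 6 motifs and had the lowest GC content of the 4, at 35.8%. No window held an AP-1, TCF/LEF, ETS, T-box or GFI1 match, which over the same summits had shares of 13.0%, 3.32%, 14.2%, 5.04% and 3.12%.

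Away from TSSs, sites with H3K4me1 in 1 treatment near the receptors held no LSD1 call, which was usual over all genes. Overlapping peaks of all antibodies were merged into 69 sites, 18 at a TSS and 51 away from one. Away from TSSs, 36 sites carried H3K4me1, 21 in both treatments, 12 in GSK alone and 3 in Veh alone, and 21 sites carried LSD1, 10 in both, 8 in Veh alone and 3 in GSK alone. The 15 sites with H3K4me1 in 1 treatment held no LSD1 and no H3K4me2 peak, as did 88.8% of 8956 such sites in the windows of all genes. Of the 21 sites with H3K4me1 in both treatments, 9 held neither, beside 58.4% over all genes. Of the 8 sites with LSD1 in Veh alone, 4 carried H3K4me1 in both treatments and 4 carried none, beside 43.1% and 50.9% over all genes. Where both calls were kept, their values could still differ, as at −12.6 kb from Ccr9, where LSD1 was lower and H3K4me1 higher in GSK. The 13 GSK H3K4me1 peaks without a Veh counterpart, 1 of them at the Cxcr5 promoter, had a median −log10 p of 6.42, against 10.8 for the 31 with one. Of the GSK H3K4me1 peaks away from TSSs, 23 of 35 overlapped a Veh peak, 65.7% (interval 49.2 to 79.2), beside 75.7% for all genes. In the pairs, 9 of 22 had a lower −log10 p in GSK, beside 41.2% over all genes.

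The wider pathway was read from 3 lists. Of 15 other chemokine receptor genes, which include decoy and lymph node receptors, 8 had no promoter peak in any list, beside 40.7% of all genes. The median of the 15 was 0 lists, against 4 for all genes. Ccr7, the receptor for entry into lymph nodes, and Ccrl2 were among those with H3K4me3 in both treatments. LSD1 was at Ccr6, Ccr7 and Ccrl2 in Veh and at Ccrl2 in GSK. Ccr7 had Pol II in both treatments and promoter H3K4me1 in Veh alone, beside 3.43% of all genes, while Ccr3 had H3K4me1 in GSK alone.

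Of 21 genes that act below chemokine receptors, such as G protein subunits, arrestins and Rac GTPases, 21 had promoter H3K4me3 in both treatments. Over all genes this share was 49.8%. Against a median of 4 lists for all genes, these genes had a median of 6. Pol II was at 13 of them in Veh and 11 in GSK, shares above the 29.4% and 25.0% of all genes. Grk2, which desensitizes receptors, Rgs16, a brake on G protein signalling, and Rac1 had Pol II in Veh alone, as did 7.35% of all genes, and Gnb2 had it in GSK alone, as did 2.95%. H3K4me2 was at 7 of them in Veh and at none in GSK, beside 39.2% and 28.3% of all genes, and 12.8% of all genes had it in Veh alone. LSD1 was in Veh alone at Rgs2 and Pik3cg and in GSK alone at Gnai3, Dock2 and Rac2, beside 4.46% and 9.78% of all genes. Of 12 homing and adhesion genes, 10 had H3K4me3 in both treatments and 7 had Pol II in both, beside 49.8% and 22.1% of all genes. LSD1 was at 6 of them in Veh and 5 in GSK. Calls in 1 treatment went both ways, with Itgb7 and Cd44 among those in Veh alone and S1pr1 and Klf2 in GSK alone.

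Some genes of these lists had nearly the same promoter pattern as a receptor over the 12 lists. Cxcr3 differed in 1 call from Itgb7, an integrin chain used in gut homing. Cxcr6 differed in 1 call from Rgs1, and Ccr2 in 1 call from Gng2. Ccr4 differed in 2 calls from Itga4 and Itgb7, and Cxcr4 in 3 calls from 7 genes, among them Arrb1, Ccrl2 and Gnb2. Among all other genes, an identical pattern was found in 17 (0.0652%) for Cxcr3, 161 (0.617%) for Cxcr4 and 15 (0.0575%) for Cxcr6. The pattern of Ccr2 was found in 62 (0.238%) and that of Ccr4 in 32 (0.123%).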

How the data were processed

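ChIP-seq peak lists of 12 libraries were used, 1 per antibody and treatment. Per the study's methods, uniquely mapped reads (Bowtie2, mm10) were cleared of duplicates and MACS2 was run against input with a p cutoff of 0.001. Peaks of LSD1 and Pol II are narrow and have a summit, and the histone peaks are broad. The lowest −log10 p of a list was near 3.00 for the narrow lists and at least 4.99 for the broad lists, which were therefore held to a stricter level. The authors deposited for each peak a fold enrichment, which is a ratio of pileup to local background. The deposited lists further give −log10 values of p and q, and a deposited score, a rescaled form of these that was not used in the results. A longer or deeper library yields more and more significant peaks, so counts and −log10 p are not scaled for depth.

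Windows were the gene body and 30 kb on each side, promoters 1 kb on each side of curated RefSeq TSSs (31554 TSSs of 26089 genes), and overlap was at least 1 bp. Positions are those of the summit or, for broad peaks, the centre. All 214352 peaks lay within GRCm38 chromosomes. A gene took the promoter peak with the highest fold, and −log10 p decided between equal folds. Intervals of ratios were derived from the GSK share among the peaks of both lists (Wilson, 95%). Scripts used python 3.11.15, numpy 2.4.6, pandas 2.3.3 and scipy 1.17.1 and were tested on simulated peaks. The members, gene lists and motifs were chosen with earlier results of these data known. The named genes were all 9 members. The named sites were, per gene, the LSD1 peak away from TSSs with the highest −log10 p and each H3K27ac site, together with sites where a call differed between treatments, the last chosen after their values were seen. Some items that fall under these rules are not reported here. Alternatives were the flank, the promoter width, the annotation, the overlap, a −log10 p of at least 5 and lists of equal length.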

Additional observations from a re-analysis of the deposited data

How the results depend on the processing

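With 24 results under their alternatives, 102 of 114 comparisons stayed within the counting interval of a ratio or share, or within 1.5 times a promoter count, and 12 moved. No result moved with a flank of 10 kb or 50 kb, with promoters of 2.5 kb on each side, or with peaks of −log10 p of at least 5. The intervals were wide, so a result could change a good deal and still count as unmoved. With a flank of 50 kb, the share of Veh H3K4me2 peaks kept went from 20.0% to 50.0%. The H3K4me2 ratio of GSK to Veh peaks went from 0.200 to 0.450. With lists of equal length, the H3K27ac ratio of GSK to Veh peaks was 3.00, the share of Veh H3K27ac peaks kept was 100.0% (1 of 1 peak), and 0 receptors had promoter H3K27ac in Veh. When a GSK peak had to cover 50% of the Veh peak, 10.0% of Veh H3K27ac peaks were kept. With promoters of 500 bp on each side, H3K4me1 was at 2 receptors in Veh and 4 in GSK, H3K4me2 at 1 and 0, and GSK H3K27ac at 0. With GENCODE M21 TSSs, which add starts 35.4 kb upstream of the RefSeq start for Cxcr5 and 88.8 kb for Ccr9, LSD1 in GSK was at 4 receptors, and H3K4me2 was at 4 in Veh and 3 in GSK. These alternatives differ by construction in peaks or windows. No replicate could be left out, since each group has 1 library. No paired analysis was possible because the replicate numbers in the labels belong to input samples without a peak list and each antibody and treatment has 1 library. Depth limits all counts: a call missing from a list is not a measured absence.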
